A study of Saccharomyces cerevisiae with 12 samples.

Results

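The opi1set2 yeast strain lacks both OPI1 and SET2, and it was set against wild type (WT) in 4 RNA-seq libraries, 2 of each genotype, of the 12 libraries of the study. The comparison was made by the rule of taking the opi1set2 and WT count columns and keeping genes that reached an FPKM (a level scaled for gene length and library depth) of 1 in 2 or more of the 12 libraries. SET2 and OPI1 were left out, which gave 6581 of the 7126 genes in the table. All strains had the Saccharomyces cerevisiae background CEN.PK. The groups used were opi1set2 (both genes knocked out), set2 (SET2 alone knocked out), opi1 (OPI1 alone knocked out) and WT, and all of them had been grown to log phase in YPL medium, washed and kept for 1 h in SL medium, which the labels call minimal. The libraries of cho2 (CHO2 knocked out) and cho2set2 (CHO2 and SET2 knocked out) served only in the filter, the scaling and the pooled spread. The first cho2set2 library held counts of SET2, so a fit without it was also run. Whether both libraries of a strain stem from independent cultures is not in the labels, so p-values reflect only their spread, which may be technical. In such bulk samples, fewer cells of a kind and less RNA per cell cannot be told apart.

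Opi1 is the repressor of phospholipid synthesis genes. When inositol is plentiful it binds the activator Ino2, which with Ino4 occupies a promoter element called UAS-INO, whose core is CATGTG, and when phosphatidic acid builds up Opi1 is held at the endoplasmic reticulum away from these genes. Set2 travels with elongating RNA polymerase II and methylates lysine 36 of histone H3, a mark that recruits the Rpd3S deacetylase to transcribed regions and keeps promoters hidden inside genes silent. Both pathways draw on S-adenosylmethionine (SAM), the methyl donor that Cho2 and Opi3 use to make phosphatidylcholine and Set2 uses to methylate histone.

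Promoter stretches of phospholipid genes that rose are shown because they hold the core of the element Opi1 acts on. They come from the R64 genome of RefSeq, not from a CEN.PK sequence, lie on the minus strand, and are written 5′ to 3′ as the gene reads. Of 6048 gene IDs shared by R64 and the deposited table (build sacCer3), 6036 had the same start and end. Capitals mark CATGTG or its reverse complement CACATG. The INO1 stretch (chrX:136086-136196) spans 263 to 153 bases before the start codon, CHO1 (chrV:208608-208653) 179 to 134, PSD1 (chrXIV:317810-317931) 260 to 139, OPI3 (chrX:573058-573167) 232 to 123, and HNM1 (chrVII:364158-364203) 287 to 242.
INO1: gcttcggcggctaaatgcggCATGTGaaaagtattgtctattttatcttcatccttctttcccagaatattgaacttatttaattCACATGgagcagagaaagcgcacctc
CHO1: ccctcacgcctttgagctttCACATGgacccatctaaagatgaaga
PSD1: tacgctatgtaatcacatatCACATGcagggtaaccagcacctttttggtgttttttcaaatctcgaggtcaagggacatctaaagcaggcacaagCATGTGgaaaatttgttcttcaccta
OPI3: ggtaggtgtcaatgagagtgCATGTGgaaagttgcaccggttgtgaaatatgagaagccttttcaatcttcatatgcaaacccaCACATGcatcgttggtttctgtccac
HNM1: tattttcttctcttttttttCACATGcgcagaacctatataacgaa

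The libraries held 8348535 and 7383001 counts in opi1set2, against 8323296 and 9461609 in WT, and 7383001 to 9461609 over all 12, so that 3 counts were worth 0.317 to 0.406 CPM (counts scaled to a common library size). SET2 (YJL168C, chrX:102227-104428, minus strand) had 0 and 0 counts in opi1set2, against 153 and 181 in WT. OPI1 (YHL020C, chrVIII:66242-67456, minus strand) had 0 and 1 counts in opi1set2, against 980 and 1227 in WT. Levels below are CPM scaled by TMM, which can be compared between libraries for 1 gene but not between genes, and changes are log2 ratios of opi1set2 over WT with their standard error from the quasi-likelihood test of edgeR, p adjusted by Benjamini and Hochberg over the 6581 genes. A gene is called where adjusted p is under 0.05.

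In opi1set2, 1402 genes (21.3%) were higher and 1179 (17.9%) lower than in WT, together 39.2% of those tested, and 732 of them (11.1%) differed at least 2-fold, 470 upward (7.14%) and 262 downward (3.98%). The libraries of both genotypes did not overlap for 4380 genes (66.6%), and 2575 of these were called (39.1% of all 6581 genes tested). Over the same WT libraries, set2 had 18.5% of genes higher and 15.9% lower, and opi1 8.93% higher and 8.77% lower. The median log2 change over all genes tested was -0.003. Among the largest rises were those of INO1, the enzyme that makes inositol phosphate, of DRS1 and MDN1, needed to build ribosomes, of the formin gene BNR1 and of the flocculin gene FLO10, and among the largest falls those of PDC6, AGP3 and BDS1. Without the second WT library the counts dropped to 877 higher and 661 lower genes, and 1512 of these 1538 genes were called in the same direction with it.

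**Figure D1:**
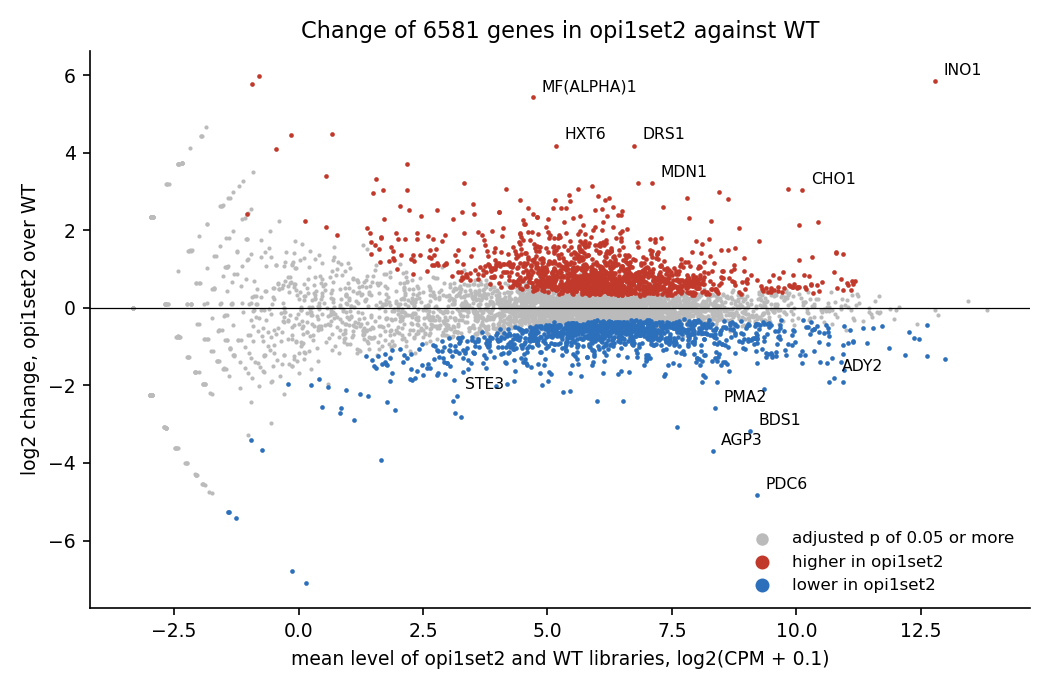
Each point is 1 of 6581 genes, with its mean level in the 4 opi1set2 and WT libraries as log2(CPM + 0.1) on the x axis and its log2 change, opi1set2 over WT, on the y axis. The 1402 higher genes are red, the 1179 lower ones blue and the rest grey, and INO1 stands alone at high level with a change of 5.84.

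Phospholipid synthesis genes rose. Of the 23 genes listed with a UAS-INO element or in the same pathway, 17 were higher and 3 lower in opi1set2 than in WT (73.9% and 13.0%, beside 21.3% and 17.9% of all genes), with a median log2 change of 1.38. INO1 had 15907 and 11908 CPM in opi1set2, 149.7 and 164 in set2 and 16264 and 15777 in opi1, against 229.6 and 256 in WT. Both opi1set2 and opi1 libraries stood far above both WT libraries, and the rise of opi1set2 over WT was 5.84 ± 0.23 (SE, n = 2 each, edgeR adjusted p = 1.2e-09), a fold of 57.3. INO1 alone took 1.67% and 1.25% of all counts in opi1set2, against 0.0236% and 0.0253% in WT.

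Genes of the route from CDP-diacylglycerol to phosphatidylcholine followed. CHO1, the phosphatidylserine synthase, had 1880.2 and 2093 CPM in opi1set2, 246 and 234 in set2 and 1343 and 1496 in opi1, against 243 and 242 in WT (3.03 ± 0.13, edgeR adjusted p = 2.2e-09). The opi1set2 libraries were above the opi1 ones too, by 0.48 ± 0.12 (edgeR adjusted p = 0.0047). PSD1, which decarboxylates phosphatidylserine in mitochondria, had 262 and 290.3 CPM in opi1set2 and 147 and 169 in opi1, against 47.0 and 43.4 in WT (2.61 ± 0.15), and it was also higher in opi1set2 than in opi1 (0.81 ± 0.14, edgeR adjusted p = 3.7e-04). OPI3, the methyltransferase of the last steps, had 1634 and 1847 CPM in opi1set2, 249 and 210.3 in set2 and 1667 and 1636 in opi1, against 365 and 421 in WT (2.15 ± 0.15). CHO2, the methyltransferase before it, changed least of these named genes, with 531 and 648 CPM in opi1set2, against 387 and 355 in WT (0.67 ± 0.15, edgeR adjusted p = 0.0025).

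Some transporters and regulators rose as well. HNM1, the choline permease, had 621 and 610.5 CPM in opi1set2 and 329 and 338 in opi1, against 92.4 and 63.3 in WT (2.98 ± 0.20), and the difference between opi1set2 and opi1 was 0.88 ± 0.18 (edgeR adjusted p = 0.0012). CDS1, the CDP-diacylglycerol synthase, rose by 2.31 ± 0.15 and ITR1, the inositol transporter, by 2.2 ± 0.17. GIT1, which takes up glycerophosphoinositol, had 46.3 and 45.6 CPM in opi1set2, 27.4 and 21.5 in set2 and 9.67 and 8.31 in opi1, against 9.37 and 8.65 in WT, so that here opi1 lay with WT and opi1set2 above all of them. INO2, the activator gene, had 96.2 and 56.9 CPM in opi1set2, 41.1 and 36.1 in set2 and 63.1 and 61.4 in opi1, against 20.4 and 20.9 in WT (1.89 ± 0.22), and the spread within opi1set2 was wide. INO4, its partner, rose by 1.00 ± 0.15. Of the 12 listed regulators of inositol and choline genes, 3 were higher and 2 lower (25.0% and 16.7%, near the shares of all genes), with a median of 0.06, and the lower ones were SCS2 (-0.38) and SNF1 (-0.31), neither of them called without the first or without the second WT library.

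Not every lipid gene moved upward. PAH1, the phosphatidic acid phosphatase, fell by 0.71, PIS1, the phosphatidylinositol synthase, by 0.52 and PCT1, of the choline branch, by 0.37, all called. DPP1, ECT1 and PSD2 did not pass the test at 0.12, 0.12 and 0.28. CPT1, EPT1, EKI1 and CKI1 of the same list rose by 1.48, 1.38, 1.16 and 0.96, all called. The fatty acid synthase subunits rose, FAS1 with 2474 and 2694 CPM in opi1set2, against 1057 and 882 in WT (1.42 ± 0.15), and FAS2 by 1.24 ± 0.14, as did ACC1, which supplies malonyl-CoA (1.32 ± 0.13). The UAS-INO genes were 17 of 23 higher in opi1set2 than in set2 and 7 of 23 higher than in opi1, beside 13.5% and 23.5% of all genes in those comparisons. The WT libraries are shared by the changes of opi1set2, set2 and opi1 over WT, whose medians for these genes were 1.38, -0.13 and 0.99.

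**Figure D2:**
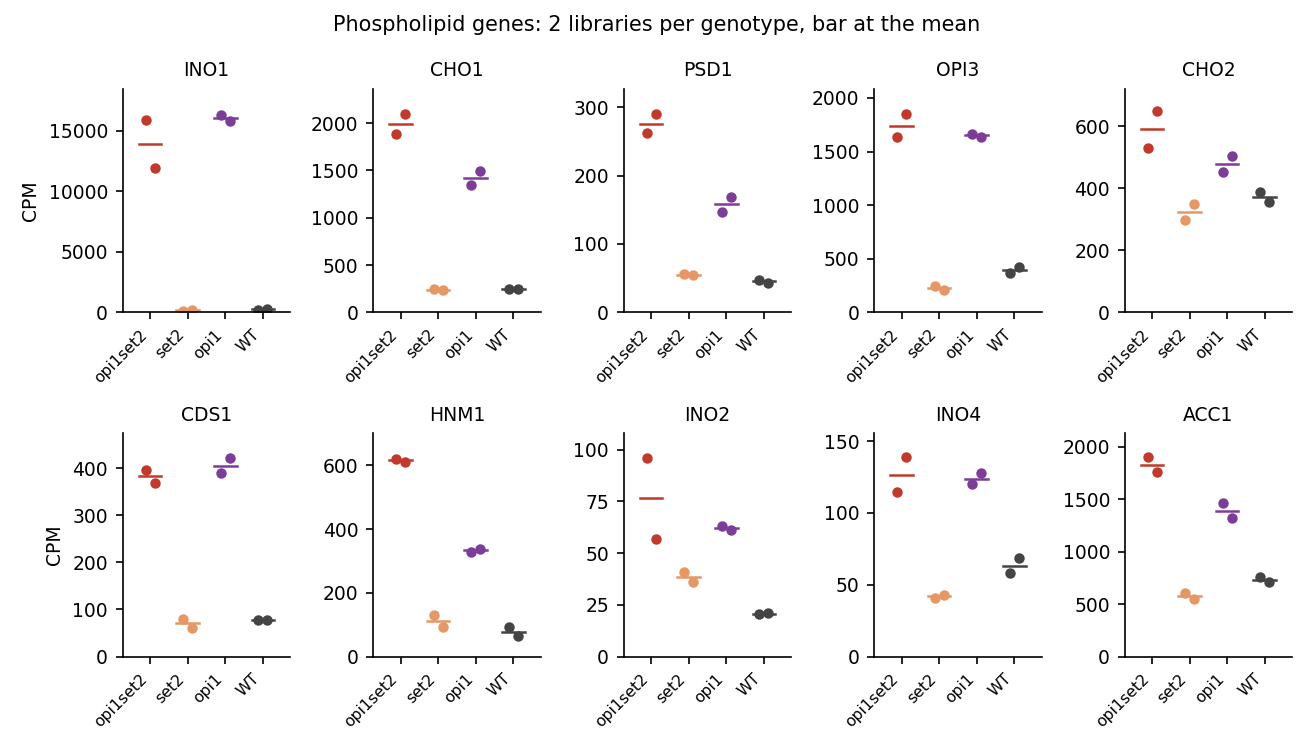
Level in CPM (y axis from 0, its own scale for each gene) of 10 phospholipid and fatty acid genes in the 2 libraries of opi1set2, set2, opi1 and WT, with a bar at each mean. The opi1set2 points lie above both WT points for all 10 genes, and for INO1 they lie at 15907 and 11908 CPM, beside opi1 points at 16264 and 15777 CPM.

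CATGTG stood within 300 bases before the start codon of 14 of the 23 genes of this list (60.9%), against 497 of 6569 genes with such a window (7.57%), both strands counted. Genes were listed for a UAS-INO element, whose core is CATGTG, or for the same pathway. The 60.9% was thus partly set by the choice of genes and is no test of the element. Among the 1402 higher genes the share with CATGTG was 7.85% and among the 1179 lower ones 7.46%. A match of this kind is only a run of letters, and it overlaps its own reverse complement in a stretch such as CACATGTG, found before INO2.

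The list of the SAM cycle, transsulfuration and glutathione was mixed, with 5 of 22 genes higher and 7 lower and a median of -0.21. These shares were 22.7% and 31.8%, beside 21.3% and 17.9% of all genes, so that the higher share was near that of all genes. The lower members numbered 2 without the second opi1set2 library and 3 without the second WT library. Its largest rises were those of SAH1 and ADO1. SAH1, which hydrolyses the product of methyl transfer, had 1031 and 824 CPM in opi1set2, 301 and 262 in set2 and 592 and 589 in opi1, against 292 and 271 in WT (1.72 ± 0.17, edgeR adjusted p = 3.3e-06). ADO1, the adenosine kinase that removes the other product, rose by 1.49 ± 0.13. For both genes the opi1set2 libraries were also above the opi1 libraries, by 0.65 ± 0.16 and 0.58 ± 0.13 (edgeR adjusted p = 0.0045 and 0.0022).

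Sulfate assimilation and methionine synthesis moved the other way. Of 22 tested genes of this list, 15 were lower and 1 higher in opi1set2 than in WT (68.2% and 4.55%), with a median of -0.95. Over all genes 17.9% were lower and 21.3% higher. AGP3, an amino acid permease, had 51.9 and 40.0 CPM in opi1set2, 526 and 644 in set2 and 48.2 and 42.9 in opi1, against 422 and 765 in WT (-3.69 ± 0.29, edgeR adjusted p = 4.6e-07). BDS1, a sulfatase, had 103 and 112 CPM in opi1set2, against 769 and 1157 in WT (-3.17 ± 0.24). For these 2 genes the opi1set2 and opi1 libraries lay together and those of set2 lay with WT.

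The enzymes of the reduction pathway itself took an intermediate place. MET3, the ATP sulfurylase, had 990.1 and 664 CPM in opi1set2, 2927 and 3173 in set2 and 343 and 328 in opi1, against 2496 and 3675 in WT (-1.90 ± 0.31, edgeR adjusted p = 3.1e-04). MET14, the next kinase, had 519 and 439.5 CPM in opi1set2, 831 and 1056 in set2 and 129.7 and 114 in opi1, against 1044 and 1081 in WT (-1.15 ± 0.33). MET16, the reductase after it, had 249.6 and 267 CPM in opi1set2, 380.2 and 499 in set2 and 65.2 and 72.2 in opi1, against 489 and 511 in WT (-0.95 ± 0.32, edgeR adjusted p = 0.027). In each case opi1set2 stood between opi1 and WT, with no overlap. The call for MET16 against WT was lost without any 1 of the 4 libraries.

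Of the 22 genes, 19 were higher in opi1set2 than in opi1 and 18 lower than in set2 (background 23.5% and 12.3%). MET16 was 1.91 ± 0.33 above opi1 (edgeR adjusted p = 3.4e-04) and MET14 1.97 ± 0.34. MET17, which makes homocysteine, had 3683 and 4557 CPM in opi1set2, 7525 and 7196 in set2 and 1741 and 1860.0 in opi1, against 6487 and 7797 in WT, a fall of 0.79 ± 0.22. MET6, the methionine synthase, had 4916 and 4470.2 CPM in opi1set2, against 5617 and 6942 in WT, a change of -0.42 ± 0.27 that did not pass the test. SAM1, a SAM synthetase, did not pass it either at -0.61 ± 0.28, with 376 and 265 CPM in opi1set2, 688 and 689 in set2 and 82.3 and 61.3 in opi1, against 498 and 480.3 in WT, whereas its paralogue SAM2 rose by 0.74 ± 0.27 (edgeR adjusted p = 0.04, lost without any 1 of the 4 libraries).

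JLP1, which releases sulfite from sulfonates, did not take that middle place. It had 18.7 and 21.6 CPM in opi1set2, 315 and 417 in set2 and 21.3 and 17.7 in opi1, against 106 and 107 in WT (-2.40 ± 0.20, edgeR adjusted p = 6.9e-07). MET28, a cofactor of the activator Met4, fell by 1.48 ± 0.26, and 7 of 9 Met4 regulators were lower, 3 of 9 without the second WT library. The 7 were 77.8% of these regulators, beside 17.9% of all genes that were lower. The Cbf1 site CACGTG was found in the windows of 27.3% of the 22 genes and CTGTGG, the core bound by Met31 and Met32, in those of 11, against 3.36% and 7.12% of all genes. The MET16 stretch (R64, chrXVI:877785-877830, minus strand, 198 to 153 bases before the start codon) shows the first of these in capitals.
MET16: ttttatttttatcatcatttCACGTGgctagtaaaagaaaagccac

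Genes for making ribosomes rose. Of 137 ribosome biogenesis genes, 94 were higher and 1 lower in opi1set2 than in WT (68.6% and 0.73%), with a median of 0.905. Of 138 cytosolic ribosomal protein genes, 104 were higher and 2 lower (75.4% and 1.45%, median 0.70), beside 21.3% and 17.9% of all genes. Without the second WT library the higher members numbered 62 and 58. DRS1, a helicase of the large subunit, had 214 and 190.0 CPM in opi1set2, 230.0 and 274 in set2 and 5.66 and 3.12 in opi1, against 13.1 and 9.19 in WT (4.18 ± 0.25, edgeR adjusted p = 4.1e-08). MDN1, a giant ATPase that remodels pre-ribosomes, had 254 and 239 CPM in opi1set2, 284 and 304 in set2 and 19.6 and 15.7 in opi1, against 30.9 and 22.2 in WT (3.21 ± 0.22). For both genes opi1set2 lay near set2, and opi1 near WT or below it.

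NOP4 and RIX1, also of the large subunit pathway, rose by 2.90 ± 0.22 and 2.75 ± 0.25. RPA135, the second largest subunit of RNA polymerase I, had 112 and 108 CPM in opi1set2, 122 and 114 in set2 and 15.5 and 15.5 in opi1, against 32.2 and 22.5 in WT (2.01 ± 0.17). Of 20 genes listed for that polymerase, 8 were higher and 1 lower (40.0% and 5.0%, beside 21.3% and 17.9% of all genes). RPS13, a ribosomal protein of the small subunit, had 191 and 235 CPM in opi1set2, against 101 and 62.7 in WT (1.38 ± 0.19). Against opi1, 117 ribosome biogenesis and 117 ribosomal protein genes were higher in opi1set2, and against set2 the higher members were 13 and 34. As shares these were 85.4% and 84.8% against opi1, where 23.5% of all genes were higher, and 9.49% and 24.6% against set2, where 13.5% of all genes were higher. The medians of ribosome biogenesis genes over the shared WT libraries were 0.905 in opi1set2, 0.69 in set2 and -0.55 in opi1.

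**Figure D3:**
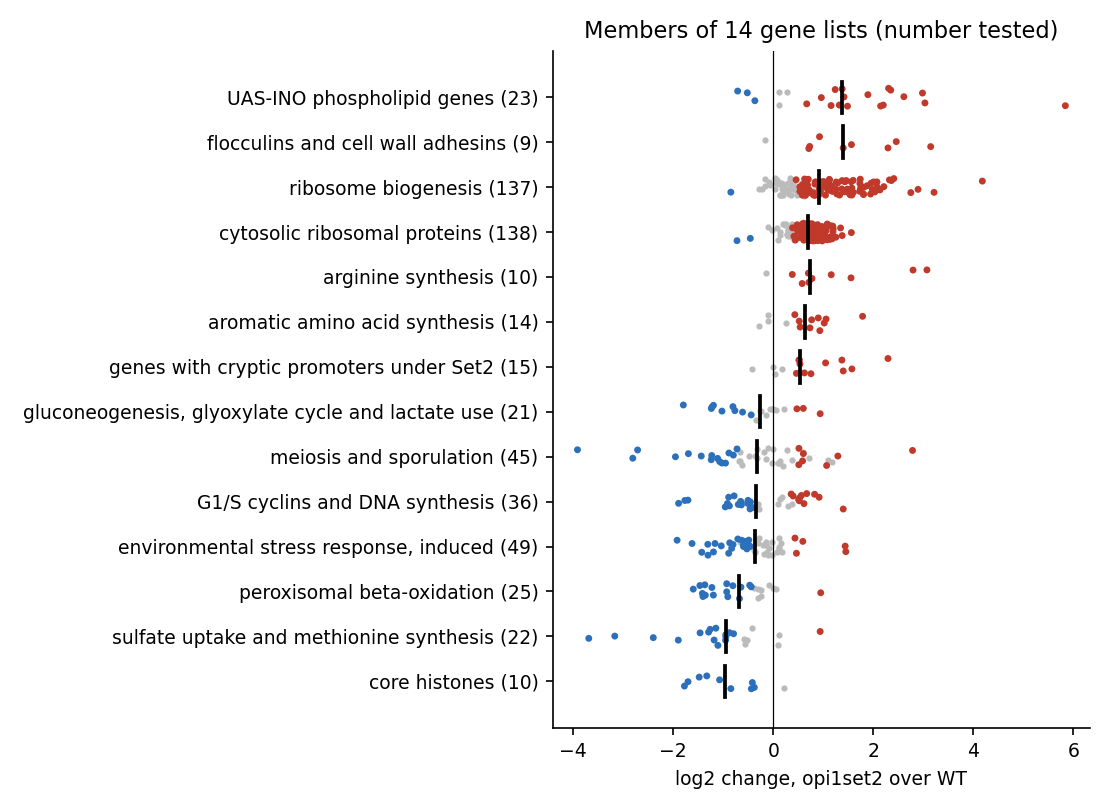
Each point is a gene of 1 of 14 lists (number tested in brackets), with its log2 change, opi1set2 over WT, on the x axis. Genes called are red where higher and blue where lower, those not called are grey, and a black bar marks the list's median, from 1.40 for flocculins and 1.38 for UAS-INO genes down to -0.96 for histones.

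Among amino acid synthesis genes, those of arginine and aromatic amino acids rose. Of 10 arginine genes, 9 were higher and 0 lower, with a median of 0.74, and of 14 aromatic amino acid genes 10 were higher and 0 lower. Without the second WT library 5 and 7 were higher. In the other lists smaller shares were higher, and over all genes 21.3% were higher and 17.9% lower. Of 10 lysine genes 1 was higher and 1 lower, of 11 branched-chain genes 2 and 1, and of 7 histidine genes 2 and 0. Of 15 serine, glycine and one-carbon genes 3 were higher and 5 lower (33.3% lower). Of 16 homoserine, threonine and glutamate genes 6 were higher and 3 lower (37.5% higher). The 33.3% and the 37.5% lay above the shares of all genes. Without the first WT library 6 lysine genes were higher, and without the second WT library 1 of the homoserine, threonine and glutamate genes. ARG4, the argininosuccinate lyase, had 1674 and 1579 CPM in opi1set2, 962 and 890.2 in set2 and 556 and 475 in opi1, against 234 and 152 in WT (3.07 ± 0.20, edgeR adjusted p = 9e-08). Here opi1set2 stood above both single mutants, by 0.81 ± 0.19 over set2 and 1.66 ± 0.19 over opi1. ARG1, the step before it, had 693 and 679 CPM in opi1set2, 1203 and 998 in set2 and 52.3 and 49.6 in opi1, against 145 and 52.8 in WT (2.79 ± 0.31), and the 2 WT libraries differed widely from each other. Against set2, ARG4 was not typical of its list. Of the 10 arginine genes, 1 was higher and 6 were lower in opi1set2 than in set2, with a median of -0.685. Over all genes 13.5% were higher and 12.3% lower in that comparison. All 10 arginine genes were higher in set2 than in WT, with a median of 1.547.

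GCN4, the activator of these genes, whose output is set mainly by translation, rose by 0.64 ± 0.16, a call lost without the second opi1set2 or the second WT library. The Gcn4 site TGACTCA was found before 5 of the 10 arginine genes, against 2.69% of all genes and 3.92% of the higher ones. In the ARG4 stretch (R64, chrVIII:141555-141601, minus strand, 199 to 153 bases before the start codon) it stands in capitals.
ARG4: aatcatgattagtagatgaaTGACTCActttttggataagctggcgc

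Large genes were called higher far more often than small ones. Of genes of at least 4000 exonic bases, 51.4% were higher and 4.29% lower (n = 210), against 14.5% and 9.82% of those under 500 bases (n = 1579). In the lowest of 4 equal groups of genes by mean FPKM over the 12 libraries, 54.9% of 102 genes of at least 4000 bases were higher and 4.45% of 719 genes under 500 bases. In the highest group 10.8% of 93 genes from 2000 to under 4000 bases were higher and 40.9% lower. Larger genes collect more counts at a given FPKM, and the part of this in the difference between size classes was not tested.

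**Figure D4:**
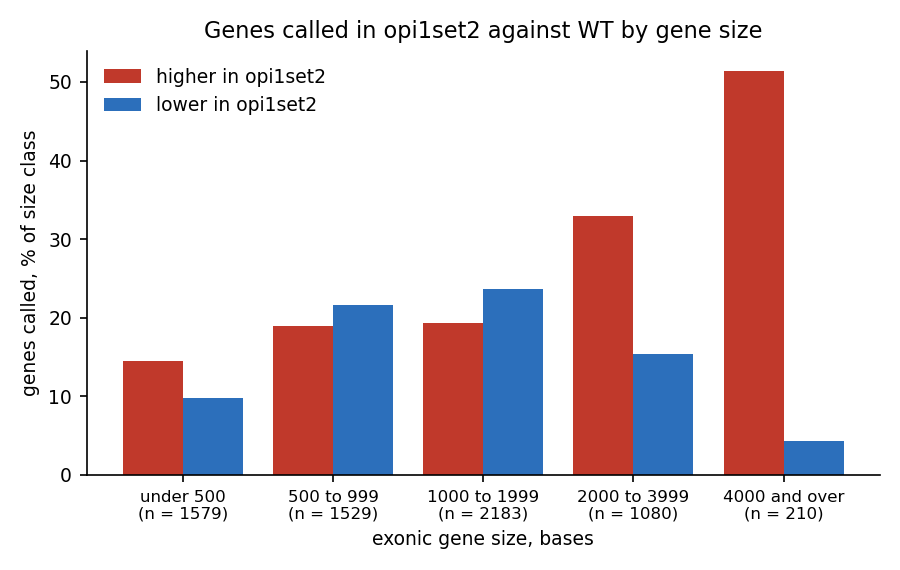
Percent of genes called higher (red) and lower (blue) in opi1set2 against WT on the y axis, by exonic gene size in bases on the x axis, with the number tested under each class. The red bars grow from 14.5% under 500 bases to 51.4% at 4000 bases and over, where the blue bar is at 4.29%.

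Genes listed for Set2 rose in most cases. Of 15 genes listed with promoters inside the gene that Set2 keeps silent, 11 were higher and 0 lower (73.3% and 0.0%), with a median of 0.53. Over all genes 21.3% were higher and 17.9% lower. FLO8, the activator of flocculation genes and a standard reporter of such internal promoters, had 49.9 and 56.8 CPM in opi1set2, 57.7 and 53.2 in set2 and 13.0 and 10.4 in opi1, against 11.9 and 9.83 in WT (2.29 ± 0.18, edgeR adjusted p = 4.6e-07). The opi1set2 and set2 libraries lay together, as did those of opi1 and WT. SPB4, a ribosome biogenesis helicase, rose by 1.57 ± 0.16, SMC3, a cohesin subunit, by 1.40 ± 0.15 and DDC1, a checkpoint gene, by 1.37 ± 0.15. Counts per gene do not show where within a gene the reads lay.

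Flocculin genes rose, and polarity genes did so in part. Of 9 flocculin and adhesin genes, 8 were higher and 0 lower (88.9% and 0.0%, beside 21.3% and 17.9% of all genes), with a median of 1.40. FLO10 had 127 and 87.5 CPM in opi1set2, 143 and 139 in set2 and 12.2 and 8.44 in opi1, against 10.9 and 13.2 in WT (3.15 ± 0.23), FLO5 rose by 1.56 ± 0.17 and FLO1, which shares sequence with FLO9, by 2.46 ± 0.30. BNR1, a formin that nucleates actin cables, had 204 and 203 CPM in opi1set2, 215 and 243 in set2 and 13.9 and 18.1 in opi1, against 24.0 and 19.5 in WT (3.23 ± 0.18). GIC2, an effector of Cdc42, had 108 and 44.0 CPM in opi1set2, 38.2 and 28.0 in set2 and 32.0 and 27.5 in opi1, against 9.37 and 10.8 in WT (2.92 ± 0.33), so that it was raised in each mutant and varied most between the opi1set2 libraries. Of 21 formin and polarity genes, 11 were higher and 2 lower (52.4% and 9.52%), and the lower ones were PEA2 (-1.89) and AXL2 (-0.56).

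Histone genes fell. Of 10 genes, 9 were lower and 0 higher in opi1set2 than in WT, with a median of -0.96, and 6 were lower without the first opi1set2 or the second WT library. With all libraries in the fit, 17.9% of all genes were lower and 21.3% higher. HHF2, for histone H4 (near-identical to HHF1), had 121 and 139 CPM in opi1set2, 249.6 and 304 in set2 and 104 and 95.7 in opi1, against 414 and 476 in WT (-1.78 ± 0.14, edgeR adjusted p = 6.1e-07). HTA2, for H2A, had 65.0 and 88.9 CPM in opi1set2, 138 and 163 in set2 and 46.4 and 44.0 in opi1, against 238 and 263 in WT (-1.71 ± 0.15). HTB2, for H2B, fell by 1.48 ± 0.14 and the linker histone gene HHO1 by 1.33 ± 0.15. For HHF2 and HTA2 the opi1set2 libraries lay under set2 and above opi1.

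Cell cycle genes of the G1/S phase moved both ways, 18 lower and 11 higher of 36 (50.0% and 30.6%, beside 17.9% and 21.3% of all genes), with 12 and 3 without the second WT library. RNR1, the large subunit of ribonucleotide reductase, had 41.0 and 39.6 CPM in opi1set2, 144 and 141 in set2 and 22.1 and 24.3 in opi1, against 131 and 132 in WT (-1.71 ± 0.14). PCL1, a G1 cyclin, fell by 1.77 ± 0.20. CLN3, the upstream cyclin, did not pass the test (-0.30 ± 0.26). Histone and RNR1 transcripts peak in S phase, and the share of cells in each phase was not measured.

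Peroxisomal beta-oxidation genes fell, 16 of 25 lower and 1 higher in opi1set2 than in WT, with a median of -0.68. Of all genes tested, 17.9% were lower and 21.3% higher in that comparison. FOX2, the multifunctional enzyme, had 1130.4 and 959 CPM in opi1set2, 2102 and 2299.9 in set2 and 4100.2 and 4406 in opi1, against 2513 and 3021 in WT (-1.41 ± 0.16, edgeR adjusted p = 1.4e-05). POT1, the thiolase, had 601 and 611 CPM in opi1set2, 972 and 1017 in set2 and 2424 and 2644 in opi1, against 1496 and 1739.6 in WT (-1.42 ± 0.14). Both genes were lowest in opi1set2 and highest in opi1. CTA1, the peroxisomal catalase, fell by 1.60 ± 0.20 and IDP3, a peroxisomal isocitrate dehydrogenase, by 1.47 ± 0.15. Against opi1, 21 of the 25 genes were lower and 0 higher in opi1set2 (background 20.8% lower).

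Genes of gluconeogenesis, the glyoxylate cycle and lactate use, a list that holds those of acetate use, were mixed. Of 21 genes, 9 were lower and 3 higher (42.9% and 14.3%, beside 17.9% and 21.3% of all genes). ADY2, an acetate transporter, had 767 and 768 CPM in opi1set2, 1114 and 891 in set2 and 10418 and 12330.4 in opi1, against 2326 and 3015 in WT (-1.80 ± 0.18, edgeR adjusted p = 4.2e-06). The log2 difference of opi1set2 from opi1 was -3.89 ± 0.20 (edgeR adjusted p = 2.2e-08), while the difference from set2 did not pass the test (-0.39 ± 0.18). ALD4 and ACS1, which make acetate and acetyl-CoA, fell by 1.24 ± 0.15 and 1.22 ± 0.17. ADY2 and ACS1 were lowest in opi1set2 and highest in opi1, whereas ALD4 differed by -0.05 between opi1 and WT. ACS2, the other acetyl-CoA synthetase, rose by 0.60. Listed stress-induced genes were lower in 44.9% and higher in 10.2% of cases, beside 17.9% and 21.3% of all genes. Of 49 stress-induced genes 22 were lower and 5 higher, with 14 lower without the second WT library.

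**Figure D5:**
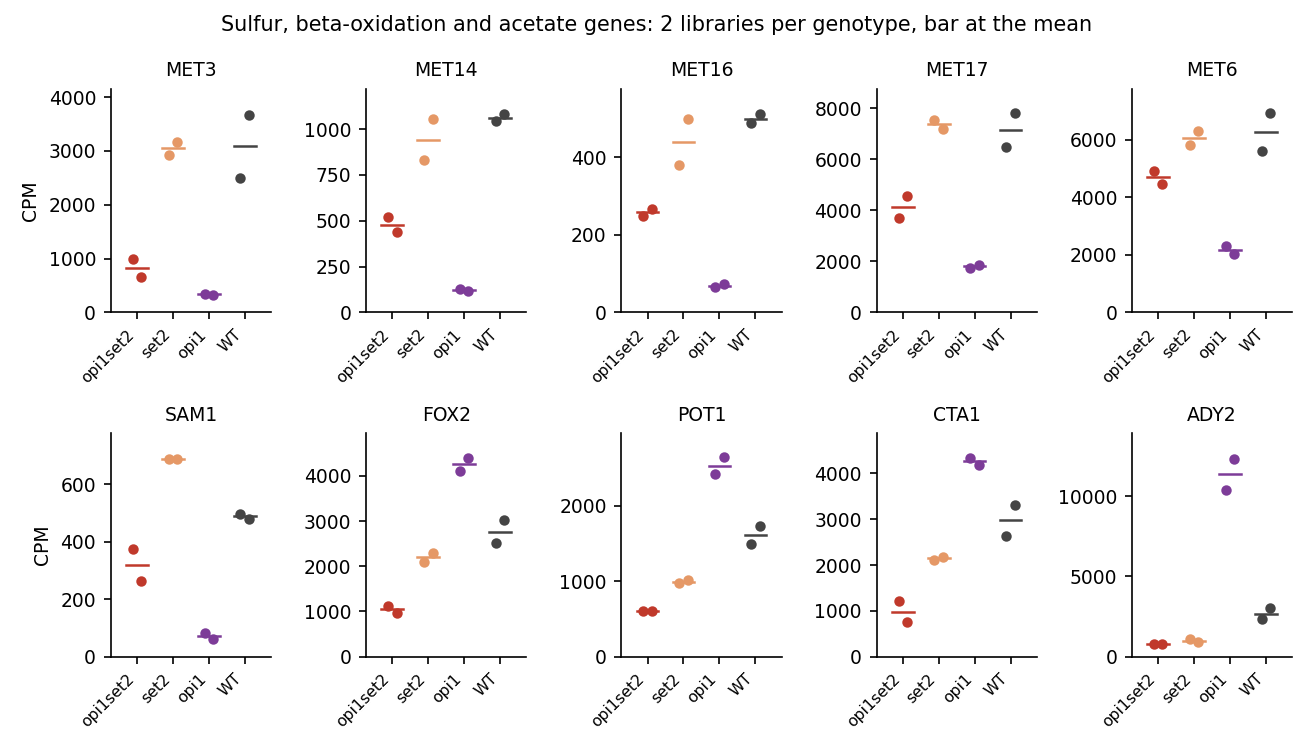
Level in CPM (y axis from 0, its own scale for each gene) of 6 sulfur genes, 3 peroxisomal genes and ADY2 in the 2 libraries of opi1set2, set2, opi1 and WT, with a bar at each mean. For MET14 and MET16 the opi1set2 points lie between those of opi1 and WT, and for FOX2, POT1 and ADY2 they are the lowest while opi1 is the highest.

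Other genes, some of them members of the lists described here, changed as much. PDC6, a minor pyruvate decarboxylase, had 45.2 and 35.7 CPM in opi1set2, 638 and 795 in set2 and 96.1 and 86.0 in opi1, against 1007 and 1293 in WT (-4.83 ± 0.27, edgeR adjusted p = 3.6e-08), lower by a fold of 28.4. GRX8, a glutaredoxin, fell by 3.07 ± 0.18, the largest fall in the list of the SAM cycle, transsulfuration and glutathione. PMA2, a plasma membrane proton pump, had 117 and 73.1 CPM in opi1set2, 265 and 164 in set2 and 872 and 838 in opi1, against 418 and 719 in WT (-2.58 ± 0.28). HXT6, a high-affinity glucose transporter near-identical to HXT7 and so uncertain in its share of reads, had 62.7 and 73.5 CPM in opi1set2, 6.19 and 7.62 in set2 and 11.6 and 15.5 in opi1, against 3.75 and 3.74 in WT (4.18 ± 0.23), above every other group.

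Of the 15 largest rises, the tRNA gene tT(AGU)I2 had 0 counts in WT and was at least 2.85-fold higher, a bound from 3 counts per library, and YBL065W, which overlaps SEF1, and YDR278C had 1 to 2 WT counts in all and ratios of 25 (95% counting interval 6.53 to 212) and 27.1 (4.44 to 1110.0). Of the 15 largest falls, YJL169W, which overlaps the deleted SET2, YHR125W, tF(GAA)P2 and tA(AGC)K1 had 0 counts in opi1set2 and were at least 5.5-fold, 4.45-fold, 1.55-fold and 1.52-fold lower by the same bound. These intervals and bounds cover counting error only.

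Mating and meiosis genes changed in both directions. The mating type is not in the labels, and transcripts of a-specific and alpha-specific genes were both present. The 7 a-cell markers summed to 742 and 521 CPM in opi1set2, against 322 and 303.5 in WT, and the 4 alpha-cell markers to 167 and 144 CPM in opi1set2, against 71.8 and 82.4 in WT, with none of the 11 at 0. Of the a-cell markers 6 were higher and 1, ASG7, was lower (-1.54), and of the alpha-cell markers 3 were higher and 1 lower. STE2, the alpha-factor receptor of a cells, had 192 and 149.5 CPM in opi1set2, 82.9 and 72.7 in set2 and 87.3 and 83.9 in opi1, against 53.6 and 51.7 in WT (1.70 ± 0.14). MF(ALPHA)1, a pheromone of alpha cells, had 50.2 and 51.9 CPM in opi1set2, 0.701 and 0.703 in set2 and 32.5 and 39.2 in opi1, against 1.17 and 1.18 in WT (5.42 ± 0.36). STE3, the receptor of alpha cells, went the other way, with 2.97 and 3.24 CPM in opi1set2, 0.234 and 0.117 in set2 and 25.8 and 26.4 in opi1, against 14.5 and 15.3 in WT (-2.26 ± 0.38).

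Of 45 meiosis and sporulation genes 15 were lower and 7 higher (33.3% and 15.6%), with 10 and 3 without the second WT library. Over all genes 17.9% were lower and 21.3% higher. MEI4, IRC18 and SSP1 fell by 3.92, 2.81 and 2.71, and SPO11, the meiotic double-strand break enzyme, rose to 116 and 132 CPM in opi1set2 and 154 and 179 in opi1, with 7.01 and 6.21 in set2, against 17.7 and 18.2 in WT (2.79 ± 0.15). SPO11 is the gene after next to the deleted OPI1, 2084 bases away, and AIM17 between them, 382 bases from OPI1, fell by 1.45 ± 0.18, so whether the deletion acts on them through their position was not tested. On the other side APM2 and YHL019W-A did not pass the test. Beside SET2, ASG7 fell by 1.54 ± 0.37, and TOH1 and ERG20 did not pass.

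The double mutant was also set against the sum of both single mutants on the log2 scale. The departure from that sum (opi1set2 minus opi1 minus set2 plus WT) passed the test for 360 genes (5.47%), 187 positive and 173 negative. The count ran from 44 to 1145 when single libraries of the 4 groups were left out, 44 without the second opi1 library and 1145 without the first opi1set2 library. Among beta-oxidation genes 14 of 25 had a negative and 0 a positive departure (background 2.63% negative), and among ribosome biogenesis genes 15 of 137 had a positive and 0 a negative one (background 2.84% positive).

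FOX2 changed by -1.41 in opi1set2, -0.33 in set2 and 0.62 in opi1 over WT, which sums to 0.29 for the single mutants, a departure of -1.70 ± 0.22 (edgeR adjusted p = 0.002). ADY2 changed by -1.80 in opi1set2, -1.41 in set2 and 2.09 in opi1, a departure of -2.48 ± 0.25 (edgeR adjusted p = 2.4e-04). YDL057W, an uncharacterised gene, rose by 1.91 in opi1set2, 1.89 in set2 and 2.39 in opi1, so that opi1set2 and set2 lay together and opi1 above them, with a departure of -2.37 ± 0.22 (edgeR adjusted p = 1.4e-04). YHB1, the nitric oxide dioxygenase, had 663 and 817 CPM in opi1set2, 488 and 385 in set2 and 40.7 and 56.2 in opi1, against 225 and 128 in WT, with a departure of 2.62 ± 0.42 (edgeR adjusted p = 0.0047). For MET14 and MET16 the departures were 2.15 ± 0.47 and 2.1 ± 0.45, past the threshold in 5 and 6 of the 10 alternative fits.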

How the data were processed

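The authors deposited 1 table with whole-number read counts per gene and library, and FPKM that matched a recomputation from those counts within 0.005. The deposited counts were not normalized and not pooled. Per the submitters' processing notes, cutadapt 1.9.1, HISAT2 2.0.1, HTSeq 0.6.1 and sacCer3 were used, without roles, and the strand setting is not given in the sources used here, so reads of overlapping genes cannot be told apart.

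Counts were tested with edgeR 4.0.16 (TMM factors 0.897 to 1.08, glmQLFit and glmQLFTest, 2-sided) over all 12 libraries with a mean for each of the genotypes, which left 6 residual degrees of freedom; the common BCV (spread between replicates) was 0.12. FPKM served for the filter and in 1 alternative, limma 3.58.1 on log2(FPKM + 1). In simulated data of this design, 46.3%, 88.1% and 100% of genes changed 1.5-, 2- and 4-fold were found among 6583 genes, and 10 of 166 calls were false. The simulation gave every gene the same spread and changed only 200 genes, none of low count, in opi1set2 alone. Far more genes were called in the real data, so these rates may not hold there. Named genes were the 15 largest rises and falls among called genes without overlap between the groups whose mean FPKM reached 5, up to 4 called members of a list, the 5 largest departures each way, key genes and neighbours of both deletions. Others were named after their values were seen: CDS1, ITR1, PAH1, PIS1, PCT1, DPP1, ECT1, PSD2, CPT1, EPT1, EKI1, CKI1, SNF1, AXL2 and ACS2. Near-identical genes were found with BLAST 2.17.0 at 90% identity. The genes compared and all lists were chosen with earlier results of these data known.

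The labels do not say whether the replicate numbers pair the libraries. The correlation of differences between replicates ran from -0.329 to 0.329 over 15 pairs of genotypes, which cannot settle it. The main fit used no pairing.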

Additional observations from a re-analysis of the deposited data

Results flagged for a closer look

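Each value here is the departure of opi1set2 from the sum of both single mutants on the log2 scale, that is, the change with SET2 loss in cells without OPI1 minus that in cells with OPI1, and each passed the test of that difference (edgeR, adjusted over all genes tested). Negative departures were found for ADY2 (-2.48), YDL057W (-2.37), JLP1 (-1.73), FOX2 (-1.70), CTA1 (-1.64), IDP3 (-1.54) and POT1 (-1.36), and all 7 passed in all 10 alternative fits. Positive departures were found for YHB1 (2.62), AAD16 (2.22) and HTA2 (1.5), which also passed in all 10. AAD16 is near-identical to AAD15, AAD3 and AAD4, so its reads are uncertain.

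Departures that passed in some of the 10 fits were those of the histone genes HTB2 (1.11, 9 fits) and HHF2 (1.06, 8 fits), of the sulfur genes MET16 (2.1, 6 fits), MET14 (2.15, 5 fits), SAM1 (1.67, 5 fits) and MET17 (1.15, 2 fits), of OPI3 (0.85, 3 fits) and of STE3 (3.22, 3 fits), which had 2 and 1 counts in the set2 libraries.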

How the results depend on the processing

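Of 217 named genes called in opi1set2 against WT, 166 stayed called with the same sign in all 11 alternatives run for them, and none reversed. The counts of 1402 higher and 1179 lower genes were 1359 and 1251 with median-of-ratios scaling, 1332 and 1237 with DESeq2 1.42.0, 1399 and 1168 with no filter, 1402 and 1173 without the first cho2set2 library, 1473 and 954 with limma on log2(FPKM + 1), and 1043 and 734 in the 4 libraries alone. Without single libraries they ran from 877 to 1350 higher and from 661 to 1256 lower. The count of 2914 genes called against opi1 ran from 2082 to 2905 without single libraries, with no count of shared genes. For the 1699 called against set2 the range was 762 to 2168, with 762 and 1125 without the first or second set2 library and 819 without the second opi1set2 library. For the 360 departures it was 44 to 1145, and each of the 8 libraries left out moved it by over 1.5 times. With a replicate block there were 1379 higher and 1123 lower genes, 2811, 1588 and 269 in the other comparisons, and with the numbers of the opi1set2 libraries crossed, an alternative chosen after seeing the data, 1427 and 1202. The causes were not tested. Genes under about 0.4 CPM rest on 3 counts or fewer, which limits their folds.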

Other observations

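Iron and biotin uptake genes moved in both directions in opi1set2 against WT, with 10 of 33 higher and 6 lower (30.3% and 18.2%), close to the 21.3% and 17.9% of all genes. FRE3, a reductase for iron bound to siderophores, had 64.4 and 68.2 CPM in opi1set2, 67.3 and 57.2 in set2 and 21.1 and 19.9 in opi1, against 22.4 and 22.4 in WT (1.56 ± 0.15, edgeR adjusted p = 3.7e-06), and the ferric reductase gene FRE1 rose by 1.41 ± 0.15. VHT1, the biotin transporter, rose by 1.48 ± 0.26, while TIS11, which promotes decay of transcripts for iron-using proteins, fell by 1.33 ± 0.26. For FRE3 the opi1set2 libraries lay among those of set2 or just above, and opi1 lay just below WT.

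Of 24 genes of glycolysis and fermentation, 9 were lower and 3 higher (37.5% and 12.5%, beside 17.9% and 21.3% of all genes). The largest fall was that of PDC6 (-4.83), described above. GLK1, the glucokinase, had 735 and 617 CPM in opi1set2, 2132 and 1931 in set2 and 1502 and 1254 in opi1, against 2402 and 2726 in WT (-1.92 ± 0.15, edgeR adjusted p = 4.8e-07). The opi1set2 libraries were the lowest of the 4 groups. ADH5 and PDC5, of alcohol formation, rose by 1.67 ± 0.17 and 1.34 ± 0.18.

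Of the mitochondrial lists, 20 of 44 respiratory chain and ATP synthase genes were higher (45.5%), 8 of 22 TCA cycle genes (36.4%) and 18 of 67 mitochondrial ribosomal protein genes (26.9%), beside 21.3% of all genes, with 2 lower in each list. The share of the last list was near that of all genes. Without the second WT library the higher members were 8, 3 and 3. TIM11, an ATP synthase subunit, had 561 and 834 CPM in opi1set2, against 334 and 234 in WT (1.29 ± 0.19), and NDE2, an external NADH dehydrogenase, fell by 1.12 ± 0.13.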
